A study of Arabidopsis thaliana with 24 samples.

Results

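S4 is a suppressor line of the *Arabidopsis thaliana* mutant *tt19-8*. Its 3 RNA-seq libraries were compared over all genes with the 3 libraries of *tt19-8*, 6 of the 24 libraries sequenced. All 24 entered the fit, in which they share the estimate of the spread. The libraries were chosen by their labels, S4 as a *tt19* plant with suppressor S4, and *tt19-8* as a *tt19* plant with no suppressor. All plants were whole seedlings of the Col-0 ecotype, shaken for 4 days in 3% sucrose under 24 h of light (anthocyanin inductive conditions, AIC). *tt19-8* carries a T-DNA insertion in *TT19*, and S4 carries the same insertion plus a missense change in *RDR6*, glycine to arginine, obtained by mutagenesis with EMS (ethyl methanesulfonate). S4 was picked because its seedlings were pigmented again, and it stands for 1 mutagenised line, so that any other EMS change it carries cannot be told apart from the change in *RDR6*. The lines S2 and S8, which carry nonsense changes in *RDR6* in the same *tt19-8* background, and wild-type Col-0 serve below to place the values of S4. The other lines, all in *tt19-8* too, are compared with S4 only in the last comparison, and are S1 with a nonsense change in *RDR6*, S5 with a splicing defect in *SGS3* and S7 with a splicing defect in *DCL4*. Nothing in the labels says that the replicates were separate cultures, so p-values measure only the spread between these libraries, which may be technical.

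Anthocyanins are made from phenylalanine through the phenylpropanoid pathway and the flavonoid pathway, whose intermediates also feed flavonols and the proanthocyanidins of the seed coat. TT19 is a glutathione S-transferase (GST) that binds anthocyanins and is needed for their normal accumulation in the vacuole. RDR6, with its partner SGS3, copies certain cleaved transcripts into paired RNA, which DCL4 cuts into secondary small interfering RNAs (siRNAs). The noncoding *TAS* transcripts are the best known templates: after a cut guided by a microRNA they give rise to trans-acting siRNAs (tasiRNAs), which lower other transcripts such as auxin response factors and MYB regulators of pigment.

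The microRNAs that start this pathway pair with short sequences, which are given here because the *TAS* transcripts and targets below are read against them. The microRNAs were read from the RefSeq annotation of TAIR10.1, with bases 2 to 8 (the seed) in capitals, and they are encoded at chr4:13847020-13847041 (miR828), chr3:8236161-8236182 (miR173) and chr2:16061971-16061991 (miR390a).
miR828: uCUUGCUUaaaugaguauucca
miR173: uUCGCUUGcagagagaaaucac
miR390a: aAGCUCAGgagggauagcgcc

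The windows of the *TAS* transcripts that pair best with them were found in the same assembly. The windows were chosen by pairing alone, and whether the transcript is cut in them was not tested. They are written below as they read in the transcript, 5′ to 3′, with unpaired bases in capitals. They lie on the minus strand at chr3:9417809-9417830 (*TAS4*), chr2:16537890-16537911 (*TAS1C*) and chr2:16539991-16540012 (*TAS2*), and on the plus strand at chr3:5862099-5862119 (*TAS3*).
TAS4 window for miR828: uggaauacucauuugagcaaga
TAS1C window for miR173: gugauuuuucucuAcaagcgaa
TAS2 window for miR173: gugauuuuucucuCcaagcgaa
TAS3 window for miR390a: gguguuauccuAucugagcuu

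The *TAS4* window had 21 Watson-Crick pairs, 1 G:U pair and no mismatch. *TAS1C* and *TAS2* each had 20 Watson-Crick pairs, 1 G:U pair and 1 mismatch with miR173, and differed from each other in this window only at the unpaired base. The *TAS3* window had 16 Watson-Crick pairs, 4 G:U pairs and 1 mismatch. A further siRNA, siR6611, has the sequence of the sense strand of the pentatricopeptide repeat (PPR) gene *RPF3* at chr1:23307449-23307469, and it is shown with the stretch of the sucrose synthase transcript *SUS4* (minus strand, chr3:15180604-15180624) that it can pair with, with 15 Watson-Crick pairs, 3 G:U pairs and 3 mismatches.
siR6611: uggagugaugcuucucgacua
SUS4 site: uCgAcgagaaguaucacuuuU

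The S4 libraries held 67.6, 73.4 and 37.4 M counts, and the *tt19-8* libraries 36.3, 43.0 and 37.8 M. A count of 3, taken as the floor of detection in a library, corresponded to 0.0414 to 0.0817 CPM in S4 and to 0.0691 to 0.0854 CPM in *tt19-8* (CPM, counts scaled to a common library size and composition; floors cover counting error only). Among *tt19-8* libraries, replicate 3 stood apart. Taking the chi-square of counts between 2 libraries relative to what counting alone gives, the median over genes was 4.59 for *tt19-8* replicates 1 and 2 but 13.1 and 13.6 for pairs with replicate 3, against 3.35 to 5.19 among the S4 libraries. Results that rest on that library are therefore given with and without it. Replicate 3 of S2 and of S8 also differed from replicates 1 and 2 in low-oxygen genes (below). Differences of S4 from these lines are given over all their libraries. The labels were checked first. *TT19* (AT5G17220) had 4.64, 5.07 and 6.10 CPM in S4 replicates 1, 2 and 3 and 0.936, 1.17 and 1.54 CPM in *tt19-8*, where Col-0 had 125, 128 and 133 CPM. S4 and *tt19-8* were thus both far below the wild type. *RDR6* (AT3G49500) itself had 28.5, 27.6 and 29.2 CPM in S4 and 32.1, 29.0 and 24.7 CPM in *tt19-8*, with overlapping values, and its missense change is not one that transcript counts can check.

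The makeup of the seedlings was followed with marker lists. The summed level of 17 light-harvesting and Rubisco transcripts, the defining transcripts of green tissue, was 187, 171 and 166 CPM in S4, 275, 254 and 299 CPM in *tt19-8* and 283 to 319 CPM in Col-0. The 7 root hair transcripts summed to 133 to 156 CPM in S4 and 101 to 151 CPM in *tt19-8*. Transcripts of 11 seed storage and oil body genes, which mark the embryo and the seed reserves that a seedling uses up, summed to 3725 to 4037 CPM in S4, 1862 to 2221 CPM in *tt19-8* and 601 to 625 CPM in Col-0. Seed transcripts were thus higher and green tissue transcripts lower in every S4 library than in any *tt19-8* library. Their part in the differences below was not tested. In whole seedlings, fewer cells of a type and less RNA per cell cannot be told apart.

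Of 22089 genes tested, 4126 (18.7%) differed between S4 and *tt19-8* at an adjusted p under 0.05 (edgeR's quasi-likelihood test, Benjamini-Hochberg adjustment), with 1729 (7.83%) higher and 2397 (10.9%) lower in S4. The median log2 fold change of all genes was -0.010, and these shares and this median are the background against which the gene lists below should be read. Changes were mostly small. Called genes with at least a 2-fold difference numbered 1062, of which 477 were higher and 585 lower, and 133 genes were at least 4-fold higher and 193 at least 4-fold lower. When each of the 6 libraries was left out in turn, 1892 genes were called in all 6 fits as well, 759 higher and 1133 lower. Without *tt19-8* replicate 3 the number of calls rose to 5431 of 22388 genes (24.3%), 2555 higher and 2876 lower. Each other omission lowered it, to between 2384 and 2801. The values of S4 and *tt19-8* did not overlap for 8852 genes (40.1%).

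**Figure D1:**
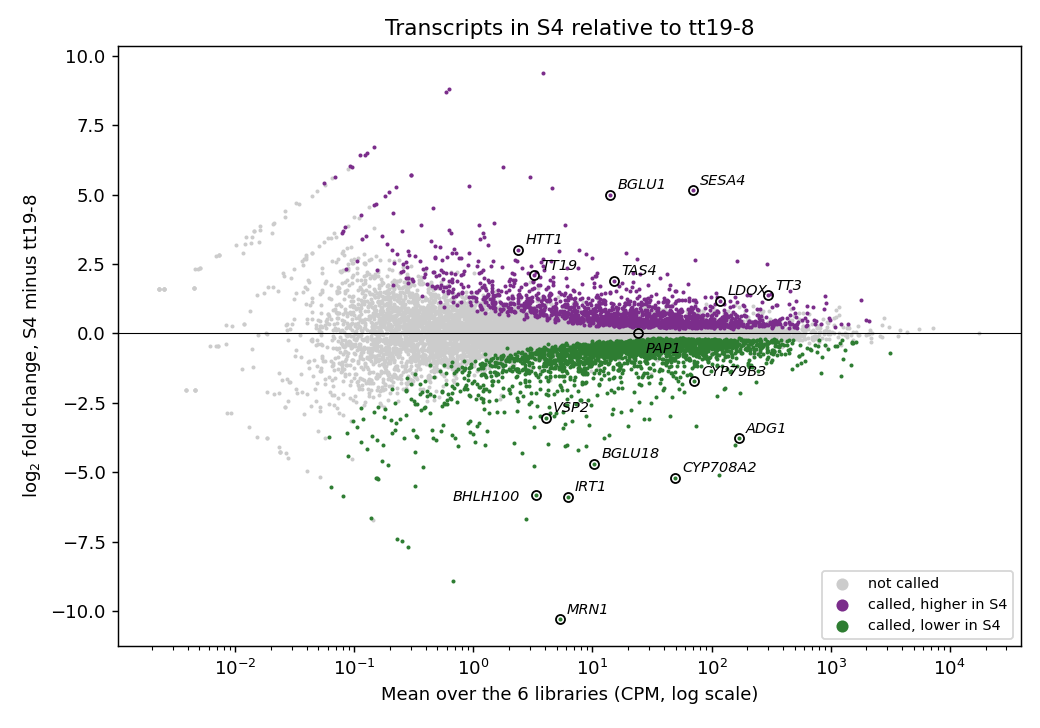
Log2 fold change of S4 minus *tt19-8* for each gene (vertical axis) against its mean level over the 6 libraries in CPM (horizontal axis, log scale). Purple points are the genes called higher in S4, green points those called lower and grey points the rest. The circled genes are described in the text: *SESA4* and *BGLU1* lie far above 0, *MRN1*, *IRT1* and *CYP708A2* far below it, and *PAP1* lies at 0.03.

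The core flavonoid genes rose together in S4. Of 7 tested, 6 were called higher and none lower, with a median log2 fold change of 1.22, and the genes that decorate anthocyanins with sugars and acyl groups were called higher in 8 of 8 cases, with a median of 0.78. Both counts were the same in each of the 6 fits with a library left out. *TT4* (AT5G13930), chalcone synthase, the entry enzyme of the flavonoid pathway, had 2513, 2538 and 2481 CPM in S4 and 1038, 978 and 1225 CPM in *tt19-8* (log2 fold change 1.22 ± 0.14 SE, adjusted p = 3.48e-06). Every S4 library was above every *tt19-8* library, and above Col-0, which had 1068, 933 and 1141 CPM. *TT5* (AT3G55120), chalcone isomerase, had 181, 197 and 187 CPM in S4 and 88.7, 96.2 and 105 CPM in *tt19-8* (log2 fold change 0.97 ± 0.15 SE, adjusted p = 9.68e-05). *TT7* (AT5G07990), the flavonoid 3′-hydroxylase that makes the precursors of quercetin and cyanidin, had 304, 305 and 307 CPM in S4 and 119, 121 and 112 CPM in *tt19-8* (log2 fold change 1.38 ± 0.18 SE, adjusted p = 1.86e-05). For both genes the genotypes were well separated, and the 3 S4 libraries lay within a few CPM of each other for *TT7*. *TT3* (AT5G42800), dihydroflavonol reductase, the committed step towards anthocyanins, had 453, 415 and 416 CPM in S4, 169, 173 and 153 CPM in *tt19-8* and 296, 285 and 338 CPM in Col-0 (log2 fold change 1.37 ± 0.15 SE, adjusted p = 2.05e-06 for S4 minus *tt19-8*). Every S4 library was above those of the wild type as well as those of *tt19-8*. *LDOX* (AT4G22880), which forms anthocyanidins, had 164, 159 and 169.9 CPM in S4 and 73.4, 79.5 and 65.1 CPM in *tt19-8*, and its difference from Col-0 was -0.030 (adjusted p = 0.918), within the spread of the libraries.

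*TT19* itself rose in S4 (log2 fold change 2.11 ± 0.25 SE, adjusted p = 7.09e-06), although its highest library in S4 held only 6.10 CPM. *TT6*, flavanone 3-hydroxylase, was the member of the core list that was not called (log2 fold change 0.88 ± 0.64 SE, adjusted p = 0.36). Its counts are uncertain, since 94.5% of its length is overlapped by the locus AT3G51238 and the authors' handling of overlapping genes is not stated.

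The decoration enzymes followed with a smaller median, given above. *SAT* (AT2G23000), a sinapoyl transferase, had 46.9, 42.3 and 46.6 CPM in S4 and 22.8, 24.2 and 20.1 CPM in *tt19-8* (log2 fold change 1.02 ± 0.17 SE, adjusted p = 0.000298). *UGT79B1* (AT5G54060), the anthocyanin xylosyltransferase, had 107, 91.3 and 97.9 CPM in S4, 62.3, 55.9 and 46.8 CPM in *tt19-8* and 122, 112 and 128 CPM in Col-0 (log2 fold change 0.84 ± 0.20 SE, adjusted p = 0.00592 for S4 minus *tt19-8*). S4 was above *tt19-8* in every library for both genes, and below Col-0 in every library for *UGT79B1*. The coumaroyltransferase *3AT2* rose by 0.98 (adjusted p = 0.004), the glucosyltransferase *UGT75C1* by 0.79 (adjusted p = 0.00437), the malonyltransferase *5MAT* by 0.71 (adjusted p = 0.00589) and *UGT84A2*, which supplies the sinapoyl donor, by 0.48 on the log2 scale (adjusted p = 0.00378).

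**Figure D2:**
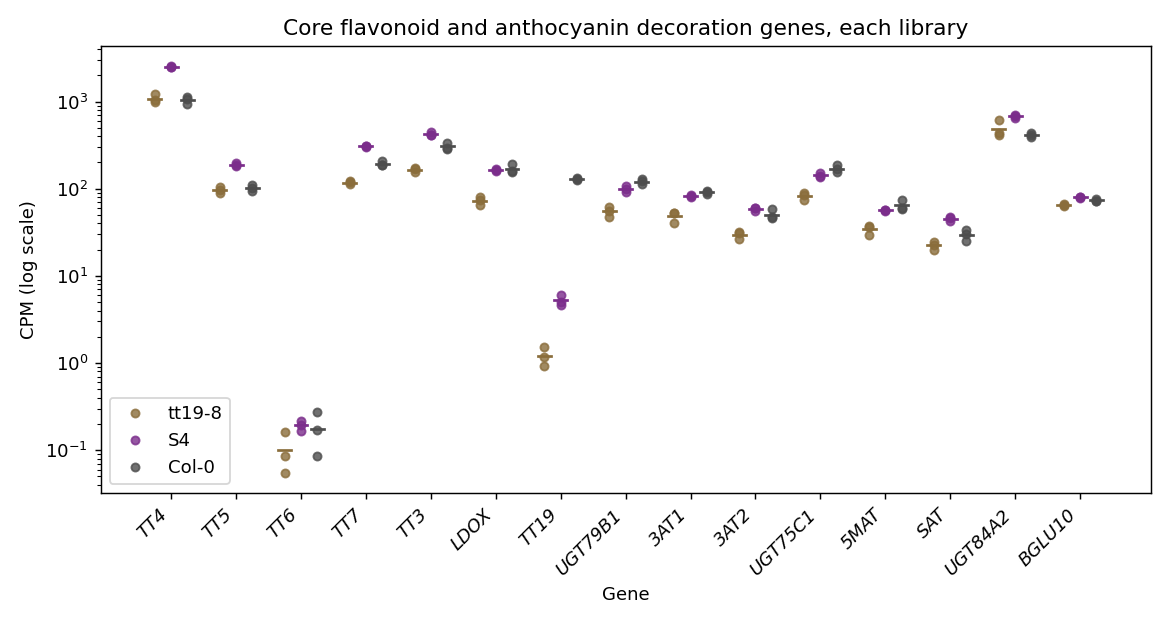
Levels of 15 core flavonoid and anthocyanin decoration genes in each library in CPM (log scale), with *tt19-8* in brown, S4 in purple and Col-0 in grey, and a line at each mean of 3 libraries. The S4 points of *TT4* lie between 2481 and 2538 CPM, above those of both other genotypes, whereas those of *TT19* lie above *tt19-8* and far below Col-0.

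Since these genes moved together, the sequences from 250 bases before to 50 bases after their annotated starts were searched on both strands for the G-box CACGTG, a binding motif of basic helix-loop-helix and bZIP factors, and for the AC element ACCNACC, a motif bound by MYB factors. A G-box was present in 6 of the 15 genes (40.0%) and in 2107 of 27443 protein-coding genes (7.68%), and an AC element in 5 of the 15 (33.3%) and in 2028 of all (7.39%). Promoters of 3 genes are shown with these motifs in capitals (RefSeq, TAIR10.1): *TT4* (plus strand, chr5:4488226-4488525) with 1 of each, *TT3* (minus strand, chr5:17165983-17166282) with 2 of each, and *LDOX* (minus strand, chr4:12006160-12006459) with none.
TT4 promoter: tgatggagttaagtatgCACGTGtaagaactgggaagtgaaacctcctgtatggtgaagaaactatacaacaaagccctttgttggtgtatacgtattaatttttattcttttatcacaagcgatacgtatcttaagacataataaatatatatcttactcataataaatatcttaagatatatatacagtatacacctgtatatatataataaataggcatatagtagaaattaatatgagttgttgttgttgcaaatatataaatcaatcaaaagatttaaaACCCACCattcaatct
TT3 promoter: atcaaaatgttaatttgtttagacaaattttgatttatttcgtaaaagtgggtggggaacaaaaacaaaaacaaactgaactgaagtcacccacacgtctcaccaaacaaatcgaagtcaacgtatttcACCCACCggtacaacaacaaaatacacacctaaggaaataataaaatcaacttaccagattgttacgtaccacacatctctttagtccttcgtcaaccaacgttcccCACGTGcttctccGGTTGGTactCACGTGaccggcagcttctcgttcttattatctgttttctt
LDOX promoter: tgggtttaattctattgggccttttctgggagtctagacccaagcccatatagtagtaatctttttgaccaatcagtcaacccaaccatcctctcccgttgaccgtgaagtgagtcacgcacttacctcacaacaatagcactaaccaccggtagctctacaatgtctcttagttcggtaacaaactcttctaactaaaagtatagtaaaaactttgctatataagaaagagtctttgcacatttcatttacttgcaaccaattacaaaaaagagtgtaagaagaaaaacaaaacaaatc

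*LDOX*, with neither motif in this window, differed about as much between S4 and *tt19-8* as *TT4* and *TT3*, and a match to a motif is a description of the letters only.

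Upstream of the flavonoid genes the early phenylpropanoid list was mixed, with 3 of 11 genes higher, 2 lower and a median of 0.042. With 1 library left out it had 2 calls (without S4 replicate 3) to 7 (without *tt19-8* replicate 3). The 4-coumarate:CoA ligases, which activate the precursor shared by lignin and flavonoids, went in opposite directions. *4CL3* (AT1G65060), the isoform associated with flavonoids, had 75.9, 71.3 and 72.0 CPM in S4 and 32.4, 30.9 and 32.7 CPM in *tt19-8* (log2 fold change 1.19 ± 0.17 SE, adjusted p = 5.74e-05), whereas *4CL1* (AT1G51680), associated with lignin, had 245, 207 and 204 CPM in S4 and 488, 449 and 340.0 CPM in *tt19-8* (log2 fold change -0.96 ± 0.15 SE, adjusted p = 9.98e-05). The genotypes did not overlap for either gene. Among 13 monolignol and sinapate genes 1 was higher and 3 were lower (median -0.23), and without *tt19-8* replicate 3 the counts were 2 and 5. *CYP84A4* (AT5G04330), which diverts phenylpropanoids into α-pyrones, had 5.49, 3.91 and 4.88 CPM in S4 and 16.1, 12.9 and 10.5 CPM in *tt19-8* (log2 fold change -1.47 ± 0.25 SE, adjusted p = 0.000351), with every S4 library lower. Of 12 genes of phenylalanine supply 4 were called lower and none higher (median -0.090), but only 1 without S4 replicate 3 or *tt19-8* replicates 1 or 2. Of these *DHS3* (AT1G22410), an entry enzyme of the shikimate pathway, was lower (log2 fold change -0.59 ± 0.13 SE, adjusted p = 0.00251), and was called in all 6 fits with a library left out. The calls of *CM2*, *CM3* and *DHS2* were each lost in at least 4 of those fits, with adjusted p-values up to 0.198.

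Flavonol genes were divided. Of 14 tested 5 were higher and 4 lower, with a median of 0.049, and of the 9 calls only 4 or 5 were made when any library other than *tt19-8* replicate 3 was left out. *FLS1* (AT5G08640), the main flavonol synthase, had 129, 136 and 133 CPM in S4, 68.0, 66.8 and 72.4 CPM in *tt19-8* and 38.0, 35.7 and 48.8 CPM in Col-0 (log2 fold change 0.94 ± 0.13 SE, adjusted p = 3.33e-05 for S4 minus *tt19-8*). S4 was the highest of the 3 genotypes and Col-0 the lowest. Its level in S4 was also above that in S8 (0.89, adjusted p = 2.37e-05), and no difference from S2 was detected (-0.025 ± 0.13 SE, adjusted p = 0.91). *OMT1* (AT5G54160), a methyltransferase of flavonols and monolignols, had 213, 193 and 194 CPM in S4 and 448, 404 and 288 CPM in *tt19-8* (log2 fold change -0.92 ± 0.18 SE, adjusted p = 0.001), lower in every S4 library. The flavonoid glucosyltransferase *UGT78D2* rose by 0.98 (adjusted p = 0.000414). *BGLU1* (AT1G45191), a β-glucosidase family gene counted in this list, had the largest change, with 26.3, 26.5 and 29.5 CPM in S4 and 1.18, 0.898 and 0.455 CPM in *tt19-8* (log2 fold change 5.002 ± 0.45 SE, adjusted p = 1.87e-07). Of 4 proanthocyanidin genes 2 were higher. *TT13* (AT1G17260), a proton pump of the vacuole membrane needed for seed coat pigment, had 10.3, 10.4 and 10.4 CPM in S4 and 2.73, 1.73 and 1.54 CPM in *tt19-8* (log2 fold change 2.38 ± 0.39 SE, adjusted p = 0.000222), and the laccase-like *TT10* (AT5G48100) had 24.99, 22.2 and 22.5 CPM in S4 and 13.7, 12.6 and 14.2 CPM in *tt19-8* (log2 fold change 0.78 ± 0.14 SE, adjusted p = 0.000432). In both cases all S4 libraries were higher.

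Among 14 flavonoid regulators 4 were called, all higher in S4 (median of the list 0.10, the same number with each library left out). *TT8* (AT4G09820), the basic helix-loop-helix factor that drives the late pigment genes with a MYB and a WD40 partner, had 33.0, 35.5 and 35.3 CPM in S4, 11.4, 13.3 and 11.5 CPM in *tt19-8* and 26.0, 25.2 and 29.2 CPM in Col-0 (log2 fold change 1.51 ± 0.15 SE, adjusted p = 6.91e-07 for S4 minus *tt19-8*). All 3 S4 libraries exceeded those of *tt19-8*. *MYBL2* (AT1G71030), a repressor of the same pathway, had 7.76, 9.14 and 9.10 CPM in S4 and 3.61, 3.66 and 2.16 CPM in *tt19-8* (log2 fold change 1.45 ± 0.21 SE, adjusted p = 6.21e-05). An activator and a repressor of anthocyanin genes were thus both higher. *MYB12* (AT2G47460), an activator of the flavonol branch, had 26.5, 29.1 and 29.8 CPM in S4 and 14.2, 15.1 and 20.9 CPM in *tt19-8* (log2 fold change 0.77 ± 0.13 SE, adjusted p = 0.000291), and was higher than in S8 by 1.12 (adjusted p = 1.92e-06). The last of the 4 was the noncoding *TAS4*, described below. Of 24 other flavonoid-related genes 5 were higher and 2 lower (median 0.054), and 3 were called without S4 replicates 1 or 2 or *tt19-8* replicate 1. *UGT73B2* (AT4G34135), a flavonoid glucosyltransferase, had 71.2, 73.3 and 63.7 CPM in S4 and 28.9, 31.1 and 32.1 CPM in *tt19-8* (log2 fold change 1.18 ± 0.13 SE, adjusted p = 2.54e-06), all S4 libraries being higher. Over the 92 flavonoid genes together, 82 were tested, and 33 were higher and 8 lower in S4 than in *tt19-8*. Against the other genotypes the counts were 33 higher and 17 lower for Col-0 (background 42.9% called in either direction), 6 and 40 for S2 (28.6%) and 17 and 39 for S8 (35.6%). These comparisons share the S4 libraries.

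In the siRNA machinery few genes were called, 2 higher and 1 lower of 23 tested, with a median of 0.12, and only 1 when S4 replicate 2 or *tt19-8* replicate 1 was left out. *AGO7* (AT1G69440), the ARGONAUTE that carries miR390 to the *TAS3* transcript, had 8.87, 9.42 and 8.39 CPM in S4 and 12.6, 13.1 and 11.9 CPM in *tt19-8* (log2 fold change -0.49 ± 0.12 SE, adjusted p = 0.0074). All S4 libraries were below all *tt19-8* libraries, and the call held in all 6 fits with a library left out. *AGO7* was also lower in S4 than in S2 (-0.45, adjusted p = 0.00882), S8 (-0.58, adjusted p = 0.00108) and Col-0 (-0.58, adjusted p = 0.000749). The remaining calls were weak. *AGO2* (AT1G31280), an ARGONAUTE of antiviral defence, had 34.0, 35.6 and 34.1 CPM in S4 and 26.7, 28.7 and 27.7 CPM in *tt19-8* (log2 fold change 0.32 ± 0.085 SE, adjusted p = 0.0116), and missed the threshold without S4 replicate 2 (adjusted p = 0.0501) or *tt19-8* replicate 1 (0.0577). *AGO10* (log2 fold change 0.42 ± 0.12 SE, adjusted p = 0.021) missed it without S4 replicates 2 or 3 or *tt19-8* replicates 1 or 2, with adjusted p-values from 0.0608 to 0.0837.

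Precursor transcripts of tasiRNAs were higher in S4 for 3 of 6 loci, none was lower, and the median was 0.50. *TAS4* (AT3G25795), whose tasiRNA is directed at *PAP1*, *PAP2* and *MYB113*, had 22.3, 24.7 and 25.2 CPM in S4 and 7.16, 6.08 and 5.97 CPM in *tt19-8* (log2 fold change 1.91 ± 0.21 SE, adjusted p = 1.99e-06). It was higher in every S4 library, yet lower than in the nonsense lines, with a log2 difference of -1.07 relative to S2 (adjusted p = 0.000326) and -0.78 relative to S8 (adjusted p = 0.00328), which had 56.4, 59.7 and 35.0 CPM and 35.6, 48.1 and 40.1 CPM. *TAS2* (AT2G39681) had 23.5, 25.7 and 26.0 CPM in S4 and 17.35, 16.1 and 15.9 CPM in *tt19-8* (log2 fold change 0.61 ± 0.14 SE, adjusted p = 0.00392). Here the difference from the nonsense lines did not pass the test (-0.27 ± 0.14 SE relative to S2, adjusted p = 0.15, and 0.26 ± 0.14 SE relative to S8, adjusted p = 0.153). *TAS1C* (AT2G39675) had 10.9, 12.4 and 13.0 CPM in S4 and 6.36, 7.44 and 6.94 CPM in *tt19-8* (log2 fold change 0.80 ± 0.24 SE, adjusted p = 0.0228), a call that was lost when S4 replicate 2 (adjusted p = 0.066) or 3 (0.0737) or *tt19-8* replicate 1 (0.0892) or 2 (0.0514) was left out, although the values did not overlap. *TAS3* was called only without *tt19-8* replicate 3 (0.55, adjusted p = 0.026, against 0.40 and 0.09 over all libraries).

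Transcripts known as targets of tasiRNAs and other secondary siRNAs were higher for 6 of 15 genes and lower for 1, with a median of 0.41. Leaving out 1 library gave 5 to 9 calls, the fewest without *tt19-8* replicate 1. The auxin response factors are targets of the *TAS3* tasiRNAs. *ARF4* (AT5G60450) had 85.3, 86.6 and 89.2 CPM in S4 and 47.6, 49.0 and 48.1 CPM in *tt19-8* (log2 fold change 0.85 ± 0.075 SE, adjusted p = 1.58e-07), and *ARF3* (AT2G33860) 18.5, 19.4 and 19.3 CPM in S4 and 11.98, 12.4 and 11.7 CPM in *tt19-8* (log2 fold change 0.66 ± 0.12 SE, adjusted p = 0.000678). All S4 libraries were higher for both. *ARF4* in S4 was lower than in S2 (-0.29, adjusted p = 0.00664) and not detectably different from S8 (-0.039 ± 0.074 SE, adjusted p = 0.722). *HTT1* (AT4G29770), a heat-induced gene targeted by the *TAS1* tasiRNAs, had 4.31, 4.27 and 4.17 CPM in S4, 0.413, 0.599 and 0.541 CPM in *tt19-8* and 7.30, 8.55 and 8.30 CPM in S8 (log2 fold change 3.02 ± 0.35 SE, adjusted p = 4.43e-06 for S4 minus *tt19-8*). S4 was far above *tt19-8* and below every S8 library (-0.92 relative to S8, adjusted p = 0.0167). Its relatives *HTT2* (AT5G18040), with 30.3, 37.5 and 31.8 CPM in S4 and 13.99, 13.5 and 13.9 CPM in *tt19-8* (log2 fold change 1.27 ± 0.17 SE, adjusted p = 1.87e-05), and *AT4G29760*, with 2.86, 2.87 and 2.72 CPM in S4 and 0.248, 0.138 and 0.142 CPM in *tt19-8* (log2 fold change 3.99 ± 0.45 SE, adjusted p = 3.18e-06), rose too. *AT5G18065* rose by 0.58 (adjusted p = 0.0111), a call lost without *tt19-8* replicate 1 (0.0748).

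None of the MYB genes named as targets of *TAS4* was called. *PAP1* (AT1G56650), the main MYB activator of anthocyanin genes in seedlings, had 24.3, 24.6 and 24.7 CPM in S4, 24.8, 24.6 and 22.8 CPM in *tt19-8* and 43.5, 44.4 and 47.1 CPM in Col-0. S4 and *tt19-8* overlapped (log2 fold change 0.029 ± 0.20 SE, adjusted p = 0.94), and S4 was below Col-0 (log2 difference -0.87, adjusted p = 0.00134). By RT-qPCR, the study reports raised *PAP1* mRNA in suppressor lines with *RDR6* mutations, an experiment that included S4. Beside its small RNA results, the study also describes more *PAP1* and *PAP2* mRNA with the suppressor mutations. These counts did not show such a rise of *PAP1* in S4, and the reason was not tested. S2 had 113, 118 and 58.1 CPM and S8 89.4, 87.5 and 86.3 CPM, all above S4. *PAP2* (AT1G66390) had 20.6, 18.8 and 21.4 CPM in S4 and 14.3, 14.9 and 16.6 CPM in *tt19-8* (log2 fold change 0.41 ± 0.21 SE, adjusted p = 0.188), and with only these 6 libraries in the fit it passed the threshold (adjusted p = 0.0102). *MYB113* (AT1G66370) had 1.38, 1.37 and 0.817 CPM in S4 and 1.51, 1.52 and 0.740 CPM in *tt19-8* (log2 fold change -0.069 ± 0.33 SE, adjusted p = 0.911), with overlapping values.

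**Figure D3:**
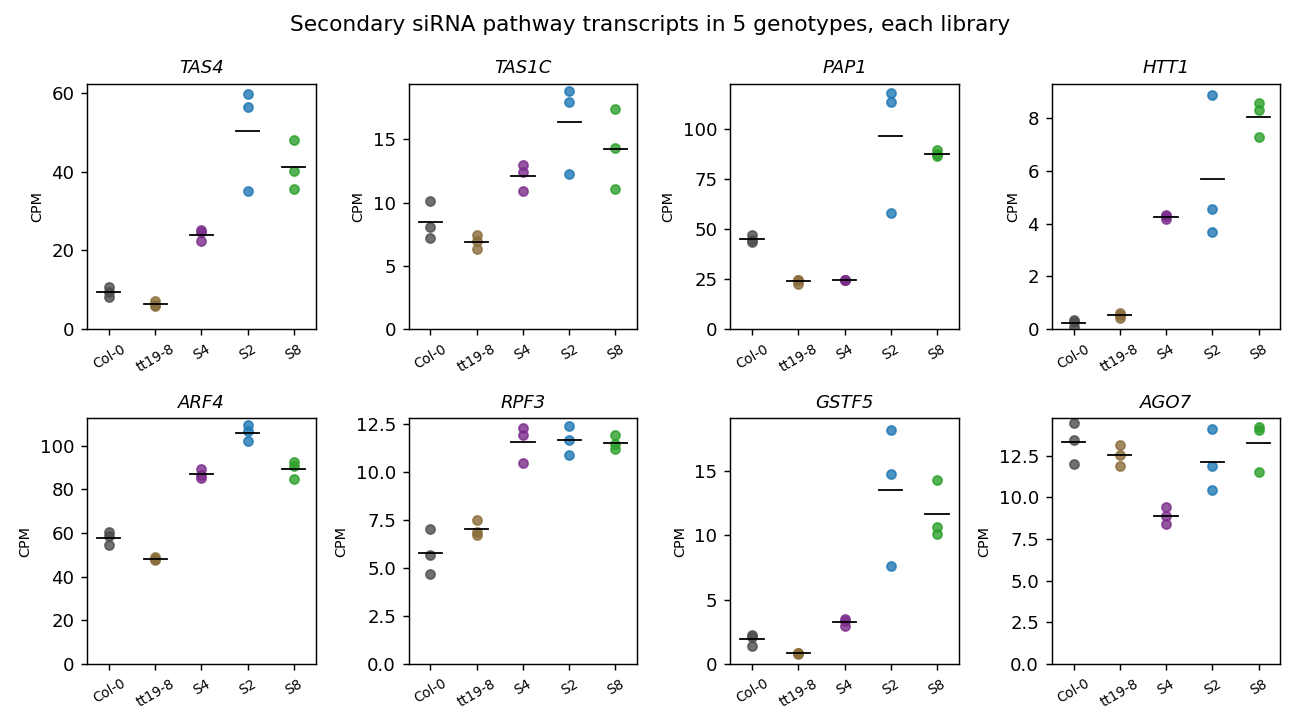
Levels of 8 transcripts linked to the secondary siRNA pathway in each library of 5 genotypes (vertical axes, CPM, starting at 0), with a line at each mean of 3 libraries. S4 lies between *tt19-8* and the nonsense lines S2 and S8 for *TAS4*, at the level of *tt19-8* for *PAP1*, at that of S2 and S8 for *RPF3*, and below all other genotypes shown for *AGO7*.

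Of the PPR genes related to *RPF3*, a cluster that is itself a known source and target of secondary siRNAs, 6 of 12 were called higher and none lower (median 0.52). *RPF3* (AT1G62930), which holds the siR6611 sequence shown above, had 10.5, 11.9 and 12.3 CPM in S4 and 7.49, 6.86 and 6.69 CPM in *tt19-8* (log2 fold change 0.72 ± 0.14 SE, adjusted p = 0.000835). *AT1G63150* had 9.83, 10.3 and 9.48 CPM in S4 and 3.44, 3.59 and 5.49 CPM in *tt19-8* (log2 fold change 1.24 ± 0.22 SE, adjusted p = 0.00057), and *AT1G62910* 3.06, 3.11 and 3.54 CPM in S4 and 1.24, 1.80 and 1.48 CPM in *tt19-8* (log2 fold change 1.096 ± 0.23 SE, adjusted p = 0.00227). For these 3 genes every S4 library was higher. The PPR genes are similar copies, between which reads may be split, so each value is uncertain. *AT1G63130*, *AT1G62590* and *AT1G62720* are also overlapped by another locus, over up to 18.22% of their length, and the call of *AT1G62720* (adjusted p = 0.045) was lost whenever a library other than *tt19-8* replicate 3 was left out.

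GSTs of the phi class, the family of TT19, were divided, with 3 higher (TT19 among them) and 4 lower of 12 and a median of 0.053. *GSTF5* (AT1G02940) had 3.47, 3.33 and 2.97 CPM in S4 and 0.799, 0.875 and 0.854 CPM in *tt19-8* (log2 fold change 1.95 ± 0.35 SE, adjusted p = 0.000488), and all S4 libraries were higher. In S2 and S8 it reached 18.24, 14.8 and 7.64 CPM and 14.3, 10.6 and 10.13 CPM, so that S4 was lower, with log2 differences of -2.05 ± 0.30 relative to S2 (adjusted p = 3.92e-05) and -1.84 ± 0.30 relative to S8 (adjusted p = 7.08e-05). *GSTF6* (AT1G02930), a stress-induced member, had 896, 969 and 949 CPM in S4 and 418, 427 and 625 CPM in *tt19-8* (log2 fold change 0.94 ± 0.18 SE, adjusted p = 0.000927), whereas *GSTF10* (AT2G30870) had 433, 439 and 425 CPM in S4 and 738, 711 and 698 CPM in *tt19-8* (log2 fold change -0.73 ± 0.13 SE, adjusted p = 0.000427). The genotypes did not overlap for either gene, in opposite directions. *GSTF7* (-0.71, adjusted p = 0.0111) was no longer called without *tt19-8* replicate 3 (-0.42, adjusted p = 0.0778).

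Genes of indolic glucosinolates, defence compounds made from tryptophan, were lower in 10 of 15 cases and higher in none, with a median of -0.38. The fewest calls with a library left out were 6, without S4 replicate 2. None of 15 genes of aliphatic glucosinolates, made from methionine, was called by edgeR or by DESeq2 (median -0.059), and 1 had an unadjusted p under 0.05. With only the 6 libraries in the fit, 5 aliphatic genes were called, 1 of them higher. *CYP79B3* (AT2G22330), the first committed enzyme of the indolic branch, had 31.9, 33.4 and 33.6 CPM in S4 and 118, 118 and 91.1 CPM in *tt19-8* (log2 fold change -1.73 ± 0.28 SE, adjusted p = 0.000216). *MYB34* (AT5G60890), its MYB regulator, had 63.0, 62.7 and 65.4 CPM in S4 and 117, 120.4 and 96.6 CPM in *tt19-8* (log2 fold change -0.81 ± 0.19 SE, adjusted p = 0.00511). Every S4 library was lower for both genes. The next enzyme *CYP83B1* fell by 0.59 (adjusted p = 0.00251) and the sulfotransferase *SOT16* by 0.38 on the log2 scale (adjusted p = 0.0045). *UGT71C1* (AT2G29750), a glucosyltransferase of phenylpropanoids that is in none of the lists, had 62.9, 66.0 and 62.4 CPM in S4 and 136, 126 and 101 CPM in *tt19-8* (log2 fold change -0.93 ± 0.23 SE, adjusted p = 0.00777), also lower throughout.

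Genes of brassinosteroid synthesis and turnover, which make and inactivate the steroid hormones of growth, were lower in 7 of 12 cases and higher in none (median -0.39). *CPD* (AT5G05690), an early steroid hydroxylase, had 39.1, 42.2 and 40.9 CPM in S4 and 54.5, 56.8 and 55.7 CPM in *tt19-8* (log2 fold change -0.45 ± 0.070 SE, adjusted p = 0.000126). The change was small but the libraries were tight and did not overlap. The hydroxylase *DWF4* fell by 0.55 (adjusted p = 0.00343), but by 0.27 without *tt19-8* replicate 3 (adjusted p = 0.00764), and the call was lost with only the 6 libraries in the fit (adjusted p = 0.0602). Among the others, the reductase *DET2* fell by 0.41 (adjusted p = 0.00369) and the hydroxylase *ROT3* by 0.60 (adjusted p = 0.00623), so both synthesis steps and, with *BAS1* (-0.84, adjusted p = 0.0123, lost without S4 replicate 1 or *tt19-8* replicate 1 with 0.0558 and 0.0536), an inactivating enzyme were lower.

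Sucrose cleavage and sugar transport genes were mostly lower where they were called, with 7 of 23 lower and 1 higher (median -0.10). Without *tt19-8* replicate 3 the counts were 9 lower and 6 higher. *BAM5* (AT4G15210), a β-amylase that is strongly induced by sugar, had 52.8, 54.4 and 51.9 CPM in S4 and 222, 219 and 185 CPM in *tt19-8* (log2 fold change -1.98 ± 0.19 SE, adjusted p = 3.19e-07), and all S4 libraries were lower. In S8 it was higher than in S4 (-1.62 for S4 minus S8, adjusted p = 1.23e-06). The sugar transporters *STP4* and *STP1* fell by 0.61 (adjusted p = 0.000152) and 0.66 (adjusted p = 0.00635), the sucrose transporter *SUC1* by 0.70 (adjusted p = 0.00106) and the glucose sensor *HXK1* by 0.42 on the log2 scale (adjusted p = 0.00225). The exception was a sucrose synthase, *SUS3* (AT4G02280), with 394, 395 and 409 CPM in S4 and 271, 267 and 307 CPM in *tt19-8* (log2 fold change 0.50 ± 0.10 SE, adjusted p = 0.00201), higher in every S4 library than in any *tt19-8* library.

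The low-oxygen response, a set of genes induced when submerged or shaken tissue runs short of oxygen, depended on *tt19-8* replicate 3. Over all libraries 1 of 17 genes was called higher and none lower (median 0.50), but without that library 14 were higher and none lower. The summed level of the 17 genes was 7815, 7448 and 7568 CPM in S4, 2566, 2494 and 10857 CPM in *tt19-8*, and 2433, 2339 and 1424 CPM in Col-0. *ADH1* (AT1G77120), alcohol dehydrogenase, had 3523, 3173 and 3328 CPM in S4 and 1043, 1003 and 4706 CPM in *tt19-8* (log2 fold change 0.57 ± 0.48 SE, adjusted p = 0.437, against 1.71 ± 0.42 and 0.00547 without *tt19-8* replicate 3). *PDC1* (AT4G33070), pyruvate decarboxylase, the preceding step of ethanol fermentation, had 1414, 1427 and 1410.2 CPM in S4 and 331, 322 and 1733 CPM in *tt19-8* (log2 fold change 0.83 ± 0.50 SE, adjusted p = 0.263, against 2.12 ± 0.43 and 0.00128). For both genes the S4 libraries were close together and lay between *tt19-8* replicates 1 and 2 on the low side and replicate 3 on the high side. *SUS4* (AT3G43190), the sucrose synthase with the siR6611 site, is part of this group and had 129, 139.8 and 130.3 CPM in S4 and 26.4, 27.6 and 539.8 CPM in *tt19-8*. Its log2 fold change was -0.57 ± 0.93 SE over all libraries (adjusted p = 0.709) and 2.30 without *tt19-8* replicate 3 (adjusted p = 0.0566), so that the direction turned on 1 library and the test passed in neither case. *PCO1* (AT5G15120), an oxygen-sensing cysteine oxidase, was called over all libraries (0.39, adjusted p = 0.0337), but not when any library other than *tt19-8* replicate 3 was left out (0.063 to 0.167). Replicate 3 was also the highest in S2 and S8, where *ADH1* had 998, 938 and 2211 CPM and 1406, 1445 and 3467 CPM.

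**Figure D4:**
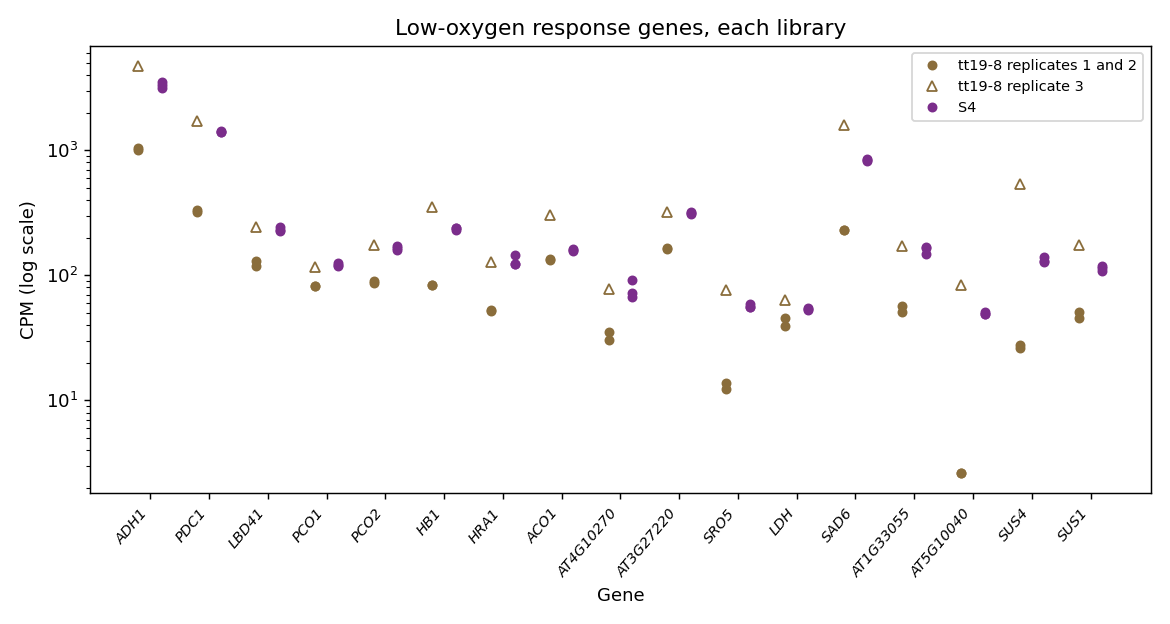
Levels of the 17 low-oxygen response genes in each S4 and *tt19-8* library in CPM (log scale), with *tt19-8* replicate 3 as an open triangle. For *ADH1*, *PDC1* and *SUS4* the S4 points lie above the filled *tt19-8* points and below the triangle.

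Iron genes changed strongly. Of 17 tested 11 were lower and 1 was higher, with a median of -1.31. *BHLH38*, *BHLH39* and *BHLH100*, basic helix-loop-helix factors of the Ib group, which switch on iron uptake when iron is short, were far lower in S4 than in *tt19-8*. *BHLH38* (AT3G56970) had 0.958, 0.760 and 0.517 CPM in S4 and 15.1, 16.5 and 11.5 CPM in *tt19-8* (log2 fold change -4.21 ± 0.28 SE, adjusted p = 5.85e-09), *BHLH39* (AT3G56980) 0.821, 0.608 and 0.490 CPM in S4 and 13.3, 11.9 and 7.97 CPM in *tt19-8* (log2 fold change -4.07 ± 0.37 SE, adjusted p = 1.87e-07), and *BHLH100* (AT2G41240) 0.0456, 0.207 and 0.0545 CPM in S4 and 6.20, 8.66 and 4.92 CPM in *tt19-8* (log2 fold change -5.83 ± 0.49 SE, adjusted p = 8.06e-08). For *BHLH100* only S4 replicate 2 was over the floor, and without it S4 was at least 104-fold lower. All S4 libraries were far below all *tt19-8* libraries for these 3 genes, and *BHLH38* is overlapped over 31.9% of its length by AT3G56960. Means in S2 and S8 were also below *tt19-8*, at 1.90 and 1.95 CPM for *BHLH38*, 2.34 and 1.87 CPM for *BHLH39*, and 0.818 and 1.32 CPM for *BHLH100*. S4 was lower still than both lines (adjusted p at most 0.00686). *IRT1* (AT4G19690), the main iron transporter of the root surface, had 0.122, 0.276 and 0.218 CPM in S4 and 16.3, 18.5 and 1.85 CPM in *tt19-8* (log2 fold change -5.88 ± 0.65 SE, adjusted p = 2.45e-06), with *tt19-8* replicate 3 well below the other *tt19-8* libraries and still above S4. S2 and S8 were low too, at 0.282, 0.180 and 0.195 CPM and 0.268, 0.154 and 0.189 CPM. *OPT3* (AT4G16370), a transporter of iron in the phloem that is also induced by shortage, had 79.9, 79.1 and 76.2 CPM in S4 and 216, 212 and 193 CPM in *tt19-8* (log2 fold change -1.40 ± 0.088 SE, adjusted p = 2.64e-09). The gene that rose was *FER1* (AT5G01600), the iron storage protein ferritin, with 248, 246 and 245 CPM in S4 and 120.0, 107 and 133 CPM in *tt19-8* (log2 fold change 1.04 ± 0.13 SE, adjusted p = 7.22e-06). Its counts are uncertain, since 63.6% of its length is overlapped by AT5G01595. Uptake genes low and ferritin high held in every S4 library.

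Defence hormone genes were lower. In the jasmonate list 7 of 13 were lower and none higher (median -0.32), and 4 were called without S4 replicate 3 or *tt19-8* replicates 1 or 2. *VSP2* (AT5G24770), a vegetative storage protein induced by jasmonate, had 0.898, 0.898 and 0.844 CPM in S4 and 10.8, 7.07 and 3.87 CPM in *tt19-8* (log2 fold change -3.04 ± 0.43 SE, adjusted p = 4.21e-05), and *AOS* (AT5G42650), allene oxide synthase of jasmonate synthesis, had 54.3, 56.8 and 53.9 CPM in S4 and 94.1, 89.7 and 83.1 CPM in *tt19-8* (log2 fold change -0.69 ± 0.12 SE, adjusted p = 0.000332). The transcription factor *MYC2* fell by 0.41 on the log2 scale (adjusted p = 0.00258), with uncertain counts, since 98.5% of its length is overlapped by AT1G32630. Among salicylate genes 5 of 8 were lower and none higher (median -0.54), and 2 were called without *tt19-8* replicates 1 or 2, *ICS1* and *EDS5*. *ICS1* (AT1G74710), isochorismate synthase, the main source of salicylate in defence, had 24.9, 21.2 and 20.1 CPM in S4 and 58.7, 61.6 and 43.5 CPM in *tt19-8* (log2 fold change -1.30 ± 0.13 SE, adjusted p = 5.29e-07), and *EDS5* (AT4G39030), which exports its product from the plastid, had 10.04, 10.2 and 10.7 CPM in S4 and 26.3, 27.5 and 24.0 CPM in *tt19-8* (log2 fold change -1.33 ± 0.093 SE, adjusted p = 9.33e-09). For all 4 genes given with values the S4 libraries were lower without overlap. Calls of *CBP60G*, *EDS1* and *NPR1* were each lost in some fits with a library left out (adjusted p up to 0.176).

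Phosphate starvation genes were lower in 4 of 13 cases and higher in 1 (median -0.14). *PHT1;4* (AT2G38940), a phosphate transporter, had 64.7, 62.0 and 61.9 CPM in S4 and 145, 128 and 98.9 CPM in *tt19-8* (log2 fold change -0.98 ± 0.13 SE, adjusted p = 2.05e-05), below in every library. Nitrate genes were divided, with 2 higher and 2 lower of 7 (median 0.41), of which 2 in all were called without S4 replicates 1 or 2 or *tt19-8* replicates 1 or 2. The nitrite reductase *NIR1* was higher by 0.44 (adjusted p = 0.0046) and the transporter *NRT1.1* was lower (-0.35, adjusted p = 0.00287). Leaf polarity genes had 2 higher and 2 lower of 11 (median -0.061), and 1 call without S4 replicate 2. Of these *YAB1* (AT2G45190), which marks the lower leaf side, had 26.9, 27.8 and 26.4 CPM in S4 and 43.5, 43.2 and 44.6 CPM in *tt19-8* (log2 fold change -0.69 ± 0.079 SE, adjusted p = 3.61e-06), and the calls of *YAB2*, *YAB3* and *PHV* were each lost when some libraries were left out. Heat shock genes were higher in 3 of 10 cases (median 0.44) and in 1 without S4 replicates 1 or 2 or *tt19-8* replicates 1 or 3, and clock genes in 1 of 11 (median 0.17) and in 3 without *tt19-8* replicate 3. Neither 8 SPL genes nor 7 root hair genes had any call by edgeR or DESeq2, and 1 SPL gene and no root hair gene had an unadjusted p under 0.05.

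Green tissue and seed transcripts, whose sums were given above, also had called members. Of 17 light-harvesting and Rubisco genes 4 were lower and none higher (median -0.70). *RBCS1A* (AT1G67090), a small subunit of Rubisco, had 98.1, 89.5 and 87.5 CPM in S4 and 154, 149 and 150.3 CPM in *tt19-8* (log2 fold change -0.72 ± 0.10 SE, adjusted p = 2.6e-05), and *RBCS2B* (AT5G38420) 2.02, 1.77 and 1.36 CPM in S4 and 11.3, 12.6 and 7.71 CPM in *tt19-8* (log2 fold change -2.59 ± 0.21 SE, adjusted p = 4.52e-08). The small subunit genes are near-identical copies, so that the split of reads among them is uncertain. Of 11 seed storage and oil body genes 6 were higher and none lower (median 0.79). *SESA4* (AT4G27170), a seed storage albumin, had 135, 132 and 139 CPM in S4, 3.66, 4.79 and 2.76 CPM in *tt19-8* and 1.41, 2.78 and 7.69 CPM in Col-0 (log2 fold change 5.16 ± 0.68 SE, adjusted p = 1.87e-05 for S4 minus *tt19-8*). *SESA3* (AT4G27160) had 277, 270.2 and 293 CPM in S4 and 52.3, 44.9 and 40.1 CPM in *tt19-8* (log2 fold change 2.61 ± 0.60 SE, adjusted p = 0.0042), and *CRB* (AT1G03880), a cruciferin, had 120.5, 124 and 130.4 CPM in S4 and 22.7, 20.3 and 16.5 CPM in *tt19-8* (log2 fold change 2.66 ± 0.54 SE, adjusted p = 0.00169). These storage protein genes were higher in all S4 libraries without overlap. The calls of *EM1* and *OLEO2* were lost in 3 and in all 6 of the fits with a library left out.

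Among genes that averaged 1 CPM or more, were called in every fit with a library left out and did not overlap, the 12 largest rises included few genes of the lists. *AT1G56100*, of the invertase and pectin methylesterase inhibitor family, had 9.01, 6.75 and 7.14 CPM in S4 and 0, 0.0230 and 0 CPM in *tt19-8*, all of the latter at or under the floor of 3 counts per library, so that it was at least 96.6-fold higher. *AT1G78500*, of the terpenoid cyclase family, had 3.45, 3.40 and 3.70 CPM in S4 and 0.0275, 0.0691 and 0.0569 CPM in *tt19-8*, at least 44.5-fold higher by the same floor. In both cases the transcript was near absence in *tt19-8*. *AT3G49270*, an extensin-like gene, had 5.98, 5.39 and 6.29 CPM in S4 and 0.331, 0 and 0.0285 CPM in *tt19-8* (log2 fold change 5.66 ± 0.89 SE, adjusted p = 0.000139). Its level in *tt19-8* rested on replicate 1, without which the other libraries were under the floor and S4 was at least 76.2-fold higher. *AT1G47540*, which codes for a small protein of the knottin family, had 8.98, 9.31 and 8.55 CPM in S4 and 0.303, 0.184 and 0.228 CPM in *tt19-8* (log2 fold change 5.23 ± 0.43 SE, adjusted p = 6.23e-08). It was higher than in S2 too (2.25, adjusted p = 4.14e-05), but not detectably different from S8 (0.19 ± 0.31 SE, adjusted p = 0.674). *KCS18* (AT4G34520), a fatty acid elongase of seed oil, had 2.48, 2.28 and 1.498 CPM in S4 and 0.0826, 0.299 and 0 CPM in *tt19-8* (log2 fold change 3.92 ± 0.77 SE, adjusted p = 0.0012), and at least 24.8-fold higher by the floor without *tt19-8* replicate 2. The others were *SESA4*, *BGLU1*, *AT4G29760*, *ABCG31*, *AT4G27654*, *AT1G21525* and *AOP3*, with log2 fold changes between 3.19 (*AOP3*) and 5.16 (*SESA4*). Levels of *AT1G56100*, *AT3G49270* and *BGLU1* in S4 were called lower than in both S2 and S8, with log2 differences from -1.74 to -3.42. Those of *SESA4* and *ABCG31* were called higher than in both.

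The 12 largest falls held genes of the marneral and thalianol clusters, which make triterpenes in the *Arabidopsis* root. They were picked by the same rule as the rises, so that no overlap between S4 and *tt19-8* was a condition of the choice and not a result. *MRN1* (AT5G42600), marneral synthase, had 0, 0 and 0.0272 CPM in S4 and 15.6, 16.0 and 0.427 CPM in *tt19-8*. The mean of *tt19-8*, carried by replicates 1 and 2, was at least 189-fold above S4 by the floor. *tt19-8* replicate 3 was far below the other *tt19-8* libraries and above S4. *CYP708A2* (AT5G48000) and *CYP705A5* (AT5G47990), which oxidise thalianol, had 2.51, 2.68 and 2.72 CPM and 6.48, 5.97 and 7.30 CPM in S4 and 125, 126 and 38.8 CPM and 284, 285 and 102 CPM in *tt19-8*, respectively (log2 fold changes -5.19 ± 0.52 and -5.09 ± 0.46 SE, adjusted p = 7.86e-07 and 1.87e-07). Replicate 3 of *tt19-8* was again the lowest of its genotype without reaching S4. The acyltransferase gene *AT5G47980* of the thalianol cluster fell by 4.77 on the log2 scale (adjusted p = 8.36e-07). The remaining genes of both clusters were looked up after these values were seen. *THAS1* (AT5G48010), thalianol synthase, had 13.2, 13.4 and 13.1 CPM in S4 and 174, 165 and 63.2 CPM in *tt19-8* (log2 fold change -3.34 ± 0.34 SE, adjusted p = 8.36e-07), and *CYP71A16* and *CYP705A12* of the marneral cluster fell by 2.59 (adjusted p = 5.87e-06) and 1.85 (adjusted p = 0.00207). *THAS1* had 13.0, 11.6 and 4.32 CPM in S2 and 117, 115 and 78.4 CPM in S8, so that no S2 library was above the S4 libraries and every S8 library was. *GolS4* (AT1G60470), a galactinol synthase, had 0.106, 0.0276 and 0 CPM in S4 and 9.17, 6.93 and 0.427 CPM in *tt19-8* (log2 fold change -6.69 ± 1.05 SE, adjusted p = 0.000139). Only S4 replicate 1 was over the floor. Without it the mean of *tt19-8*, again carried by replicates 1 and 2, was at least 89.5-fold above S4. *BGLU18* (AT1G52400), a β-glucosidase that releases abscisic acid from its glucose ester, had 0.487, 1.01 and 0.790 CPM in S4 and 19.9, 20.7 and 18.9 CPM in *tt19-8* (log2 fold change -4.69 ± 0.40 SE, adjusted p = 1.09e-07), lower in every S4 library. The others were *IRT1*, *BHLH100*, *BHLH38* and *BHLH39* (above), the WD40 repeat gene *AT1G18830* and *AT4G17470*, the latter with -4.07 on the log2 scale (adjusted p = 1.78e-05).

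A last comparison, chosen after the data were seen, asked which transcripts set S4 apart from each of the 7 other genotypes, the suppressor lines included. At an adjusted p under 0.05 in all 7 comparisons, which share the S4 libraries, 386 genes (1.75%) were higher and 530 (2.4%) were lower in S4. The 6 genes of each direction with the largest smallest difference over the 7 comparisons are described. *ADG1* (AT5G48300), the small subunit of ADP-glucose pyrophosphorylase, which makes the precursor of starch, had 23.8, 22.9 and 23.1 CPM in S4, and the other 21 libraries ran from 254 to 747 CPM with a median of 395 CPM. The smallest of the 7 fold differences was 11.1, and against *tt19-8* (319, 299 and 334 CPM) the log2 fold change was -3.77 ± 0.11 SE (adjusted p = 1.81e-15). The 3 replicates of S4 lay within 1 CPM of each other, and no other library came near them. Of 13 other starch synthesis genes, looked up after this value was seen, 1 was higher and 2 were lower than in *tt19-8*, with log2 fold changes from -0.26 (*APL3*, a large subunit, adjusted p = 0.0169) to 0.31 (*SS3*, a starch synthase, adjusted p = 0.00991). The fall of *ADG1* was thus far larger than any change among these genes.

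Others were low in S4 throughout. *BOR5* (AT1G74810), of the borate transporter family, had 1.84, 2.0996 and 2.26 CPM in S4 and 10.4 to 107 CPM elsewhere (median 27.5 CPM), the smallest fold difference to another genotype being 9.09. *AT5G19880*, a peroxidase family gene, had 0.0456, 0.138 and 0.300 CPM in S4 and 0.654 to 9.88 CPM elsewhere (median 2.62 CPM), with a smallest fold difference of 8.77. *BGLU18* had 5.32 to 89.4 CPM elsewhere (median 16.4 CPM), with a smallest fold difference of 8.57. None of these 3 genes overlapped between S4 and any other library. *AT1G18830* had 0.213, 0.276 and 0.245 CPM in S4 and 0.258 to 30.6 CPM elsewhere, the lowest of them within the range of S4, and *BHLH100* was at 0.513 to 68.5 CPM elsewhere, above all S4 libraries.

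Among genes called higher in S4 than in each other genotype, *LAP5* (AT4G34850) codes for a polyketide synthase of the pollen wall related to chalcone synthase. It had 9.51, 9.37 and 9.18 CPM in S4 and 0.176 to 2.91 CPM in the other 21 libraries (median 0.838 CPM), with a smallest fold difference of 4.15. *ABCG31* (AT2G29940), a transporter also known from the pollen coat, had 10.6, 11.1 and 11.4 CPM in S4 and 0.387 to 2.90 CPM elsewhere (median 0.875 CPM), with a smallest fold difference of 4.15 as well. Both stood clear of all other libraries. The neighbouring loci *AT4G10414* and *AT4G10410*, with 5.89, 7.22 and 6.43 CPM and 7.07, 7.64 and 7.98 CPM in S4, did not exceed 2.59 CPM and 3.04 CPM elsewhere. *AT4G10410* lost its call against *tt19-8* (adjusted p = 0.0326) in 5 of the 6 fits with a library left out, with values up to 0.116. *AT1G26240*, a proline-rich extensin-like gene, had 10.8, 6.33 and 5.91 CPM in S4 and at most 2.47 CPM elsewhere. *AT2G07717* had 1.57, 8.59 and 1.91 CPM in S4 and rested on replicate 2, without which it was not called (adjusted p = 0.114). Its S4 replicates 1 and 3 were below the highest library elsewhere (2.13 CPM).

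**Figure D5:**
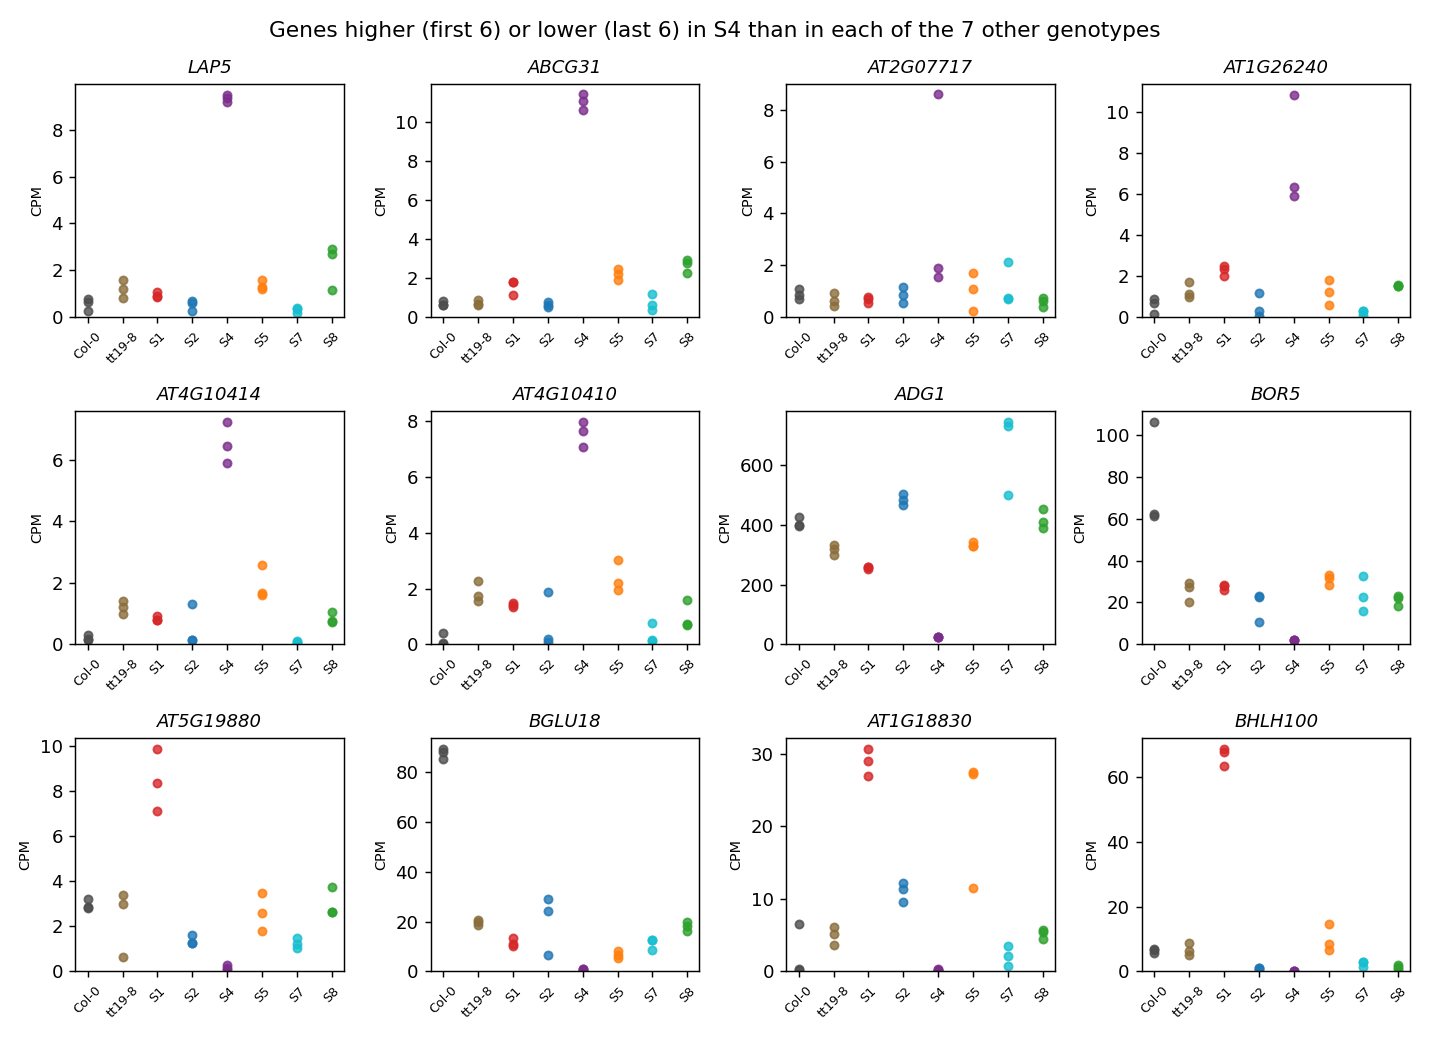
Levels of the 12 genes with the largest smallest difference between S4 and each of the 7 other genotypes, in each of the 24 libraries (vertical axes, CPM, starting at 0, points without a mean). The S4 points (purple) of *ADG1* lie at 22.9 to 23.8 CPM, below every other library, and those of *LAP5* and *ABCG31* above every other library.

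Of 378 listed genes tested 18 (4.76%) were in these groups, close to the 4.15% of all genes tested. Higher in S4 than in each other genotype were *BGLU6*, *SUS3*, *PCO1* and *PRR9*, and lower were *AGO7*, *DHS3*, *STP4*, *AOS*, *ICS1*, *CBP60G*, *OPT3*, *YAB1*, *BHLH38*, *BHLH39*, *BHLH100* and 3 Rubisco small subunit genes. The core flavonoid, anthocyanin decoration, *TAS* and tasiRNA target lists held none in 36 genes tested, a number too small to set apart from that background.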

How the data were processed

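RNA of whole seedlings was sequenced as paired-end Illumina reads, which the authors checked with FastQC 0.11.5, aligned to TAIR10 with HISAT2 and summarised by gene with FeatureCounts. The files they deposited hold raw counts, with no normalization. Whether counting used strand, and how reads of overlapping genes or similar copies were treated, is not given in the sources used here. Of 33331 gene identifiers 28932 matched a locus tag of TAIR10.1 (RefSeq), which supplied symbols, overlaps and sequences; the count files hold no coordinates.

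Libraries were grouped by their labels. Counts of all 24 libraries, 3 per genotype, were fitted with edgeR 4.0.16 in R 4.3.3 (TMM scaling, filterByExpr, 1 mean per genotype, quasi-likelihood F test, two-sided, Benjamini-Hochberg adjustment over 22089 genes, threshold 0.05; all libraries share the estimate of the spread, and the common biological coefficient of variation was 14.2%). SE is the size of the log2 fold change divided by the square root of F. Fold changes of genes at or under 3 counts in every library of a genotype are bounds at that floor, set against the mean of the other genotype. The study used DESeq2 instead, which was an alternative here (1.42.0), with other scaling, no filter, only the 6 libraries, a replicate block, an adjusted p under 0.01 and each library left out. Scripts were tested on simulated counts.

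Gene lists and the members described were chosen with earlier results of these data known. Genes given values were up to 6 per list with the smallest adjusted p (lists of the pigment, siRNA, GST, indolic glucosinolate, sugar and low-oxygen groups, and others with 1 in 3 or more of the members called), the genes the study discusses, and the 12 largest rises and falls among genes called in all fits with a library left out, with a mean of at least 1 CPM and no overlap between S4 and *tt19-8*. Others named were chosen after their values were seen.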

Additional observations from a re-analysis of the deposited data

Results flagged for a closer look

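For 3 genes the change of S4 relative to *tt19-8* differed from that of the nonsense lines S2 and S8 relative to *tt19-8*. The test was of the difference between the lines themselves, from which the shared *tt19-8* libraries cancel (edgeR's quasi-likelihood test). These 3 were the genes called in the same direction against both lines, among the genes the study discusses and the 6 *TAS* loci tested. Of all genes tested, 28.6% were called against S2 and 35.6% against S8, each in either direction. The share of all genes called in the same direction against both lines was not computed, so the number flagged cannot be set against it. The nonsense line S1 was not part of this comparison. For *PAP1* the log2 difference of S4 from S2 was -1.97 ± 0.20 SE (adjusted p = 7.16e-07) and that from S8 -1.84 ± 0.20 SE (adjusted p = 8.26e-07), with all 3 S4 libraries below all libraries of both lines. *GSTF5* differed on the same scale by -2.05 ± 0.30 SE from S2 (adjusted p = 3.92e-05) and -1.84 ± 0.30 SE from S8 (adjusted p = 7.08e-05), again without overlap. *TAS4* differed by -1.07 ± 0.19 SE from S2 (adjusted p = 0.000326) and -0.78 ± 0.19 SE from S8 (adjusted p = 0.00328), without overlap. Groups of 3 libraries are too small for a test of single outlying libraries.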

How the results depend on the processing

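Of 174 genes followed through the alternatives, 145 were called. Of these, 108 kept their call under every alternative that gave a result (at most 14), and none of the 145 changed sign. Many of the 174 were chosen for small adjusted p-values, or for calls in every fit with a library left out. Those fits are among the alternatives, so kept calls and signs are favoured by the choice and do not describe all genes. Of the 29 not called, 17 passed the threshold under at least 1. Counts fell at an adjusted p under 0.01, from 4126 to 2035 genes for S4 against *tt19-8*, from 6310 to 3524 against S2, from 7854 to 4975 against S8, and from 386 to 150 (higher) and 530 to 252 (lower) for S4 against each of the 7 other genotypes. With 1 library left out, S4 against *tt19-8* had 2384 to 5431 calls, the most without *tt19-8* replicate 3, and S4 against each other genotype 217 to 548 higher and 330 to 583 lower. Genes of the flavonoid lists called (41) ranged from 30 to 45 in those fits. S4 against S2 had 4302 to 7670 calls with a library of either left out, the most without S2 replicate 3.

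Deviations of S4 and *tt19-8* libraries with the same replicate number were hardly correlated (0.054, 0.033 and 0.018 for numbers 1, 2 and 3). Libraries with different numbers had correlations from -0.043 to 0.012, so the same-number values were small but the highest. Pairing among the other genotypes was not tested. *ADH1* and *PDC1* were high in replicate 3 of *tt19-8*, S2 and S8 alike, and not in that of S4 or Col-0. With the replicate block, S4 against *tt19-8* had 4017 calls over all libraries and 3912 in the fit of 6, and S4 against S2 had 3911 in the fit of 6. *SUS4* turned to 0.28 with the block and 1.06 with the block in the fit of 6, and ran from -1.09 to 2.30 (without *tt19-8* replicates 1 and 3) with a library left out. Signs also turned with a library left out for 3 uncalled genes, *PAP1* (-0.0086 to 0.051), *TT15* (-0.18 to 0.018) and *MYB113* (-0.33 to 0.12). The cause was not tested. Chosen after the data were seen, later edgeR settings gave 4436 calls. Depth limits genes near 3 counts per library.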
